A study of Mus musculus with 2 samples.

Results

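The genes described here encode enzymes that oxidise or reduce aldehydes, ketones and alcohols and enzymes that attach glutathione, glucuronic acid or sulphate to reactive compounds. They were every gene whose symbol begins with Aldh, Akr, Ugt, Sult, Adh or Cbr followed by a digit, or with Gsta, Gstm, Gstp, Gstt, Gstk, Gsto, Gstz or Mgst, among the probe sets with exactly 1 gene symbol. The rule found 93 of 18193 genes, on 136 probe sets. It used symbols and no measured value, but was chosen with earlier results of these data known. Glomeruli, the filtering units of the kidney, were isolated by sieving from male C57BL/6J mice, and their RNA was read on 2 Affymetrix arrays, 1 per genotype. The double knockout carried Nephrin-Cre as Cre/+ together with floxed GC-A (fl/fl) and floxed p38 (fl/fl) alleles, and the floxed control carried the same floxed alleles with Nephrin-Cre +/+, read here as the absence of Cre. GC-A is the natriuretic peptide receptor encoded by Npr1, p38 is a stress-activated kinase, and the nephrin promoter drives Cre in podocytes, so the deletion is aimed at these cells alone. At 2 months of age both genotypes had a 6% NaCl diet and an aldosterone minipump (0.2 µg/kg/min) for 3 weeks, and neither group was left without this load. How many mice were behind an array is not stated. With 1 array a genotype no difference below has a replicate check, no test could be run, and higher and lower describe these arrays only, with the double knockout read relative to its control.

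In the body, aldehyde dehydrogenases (Aldh) oxidise aldehydes to acids, aldo-keto reductases (Akr) and carbonyl reductases (Cbr) turn aldehydes and ketones into alcohols, and alcohol dehydrogenases (Adh) run between alcohols and aldehydes. Glutathione transferases (Gst, Mgst), UDP-glucuronosyltransferases (Ugt) and sulphotransferases (Sult) make compounds more soluble so that they can be exported. In the kidney most of these enzymes are known from the proximal tubule, where Aldh enzymes also serve amino acid breakdown. The retinaldehyde dehydrogenases Aldh1a1, Aldh1a2 and Aldh1a3 make retinoic acid, a hormone that acts on podocytes and on the parietal cells of Bowman's capsule.

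Over all probe sets the median was 94.7 in double-knockout glomeruli, against 88.6 in control glomeruli, and a gene was taken as measured where its higher signal reached a floor of 52.7. Npr1 read 102 in double-knockout glomeruli, against 167 in control glomeruli, and the probe set of highest signal for Mapk14, which encodes p38α, read 2607 in knockout against 2628 in control glomeruli. Which p38 gene was floxed and where these probe sets lie with respect to the floxed exons are not stated, so these values do not check the deletion. All 17 podocyte markers with a measured probe set were above the floor in both arrays, with a summed signal of 127377 in double-knockout glomeruli, against 101253 in control glomeruli, among them Nphs1 at 8373 in knockout against 5320.5 in control glomeruli. The 18 endothelial markers summed to 80689 in double-knockout glomeruli, against 48724 in control glomeruli, and the 16 macrophage markers had a median log2 difference of 0.91, which was 0.27 after recentring all genes on glomerular cell markers. Tubule RNA was present as well. The 27 proximal tubule markers, none of them below the floor, summed to 221274 in double-knockout glomeruli, against 355709 in control glomeruli, and all 27 read lower in the double knockout, with log2 differences between -1.66 and -0.28 and a median of -0.81. The 21 markers of the loop, distal tubule and collecting duct summed to 65343 in knockout against 96956 in control glomeruli, all 21 lower, with a median of -0.67. The part of these tubule signals in the enzyme values below was not tested. In such bulk RNA, fewer cells of a type and less RNA per cell cannot be told apart.

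Most of the enzymes read lower in the double knockout. Of the 93 genes, 69 were measured, 54 of them lower and 15 higher. Over all 13290 measured genes 5835 were lower and 7454 higher. The median log2 difference of the 69 was -0.59 against 0.07 for all measured genes. At least 2-fold lower were 12 of the 69 (17.4%), where 2.87% of all measured genes were, and at least 2-fold higher was 1 of 69 (1.45%), where 3.53% of all measured genes were. The medians of the 6 families lay between -0.72 for the glutathione transferases and -0.47 for the aldo-keto reductases, and each stayed below 0 under all 5 other scalings of the arrays. They depended on the floor in small families. With no floor, which lets in genes of lower signal, the Ugt median was 0.05 over 11 genes and that of Adh and Cbr -0.11 over 11. The summed signal of the 69 genes was 200198 in double-knockout glomeruli, against 307751 in control glomeruli. Of the 69, 48 had a difference within the range of the proximal tubule markers, and 21 stood above the highest of those markers, -0.28, or 19 without Sult2b1 and Ugt2a3, which passed the floor only in the double knockout. The share of all measured genes within that range was not taken.

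All 5 other scalings moved the median of all genes downward. Centring on the median or 75th percentile and recentring on glomerular cell markers lowered every enzyme gene. A direction that held for a lower gene under these therefore says little. Quantile scaling and removal of the trend on signal moved lower genes either way. Gsta2 went from -0.72 to -0.46 and -0.39, and Akr1c19 from -0.64 to -0.75 and -0.76. Of the 54 lower genes 51 stayed lower under all 5 scalings, and Akr1a1, Gsta4 and Mgst1 turned when a trend on signal was removed. Of the 15 higher genes only Aldh1a2, Aldh1a3 and Akr1b8 stayed higher under all 5 scalings, and the other 12 turned when all differences were recentred on glomerular cell markers, which moves every gene by -0.64, the median of all genes included. The other 4 scalings moved the median of all genes by -0.09 to -0.06. After centring on the median, 333 genes of the whole array were at least 2-fold higher and 530 lower, where 469 and 382 were as deposited, and among the 69 enzymes 0 were higher and 14 lower. After recentring on glomerular cell markers these counts were 66 and 2458 over the array and 0 and 46 among the enzymes.

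**Figure D1:**
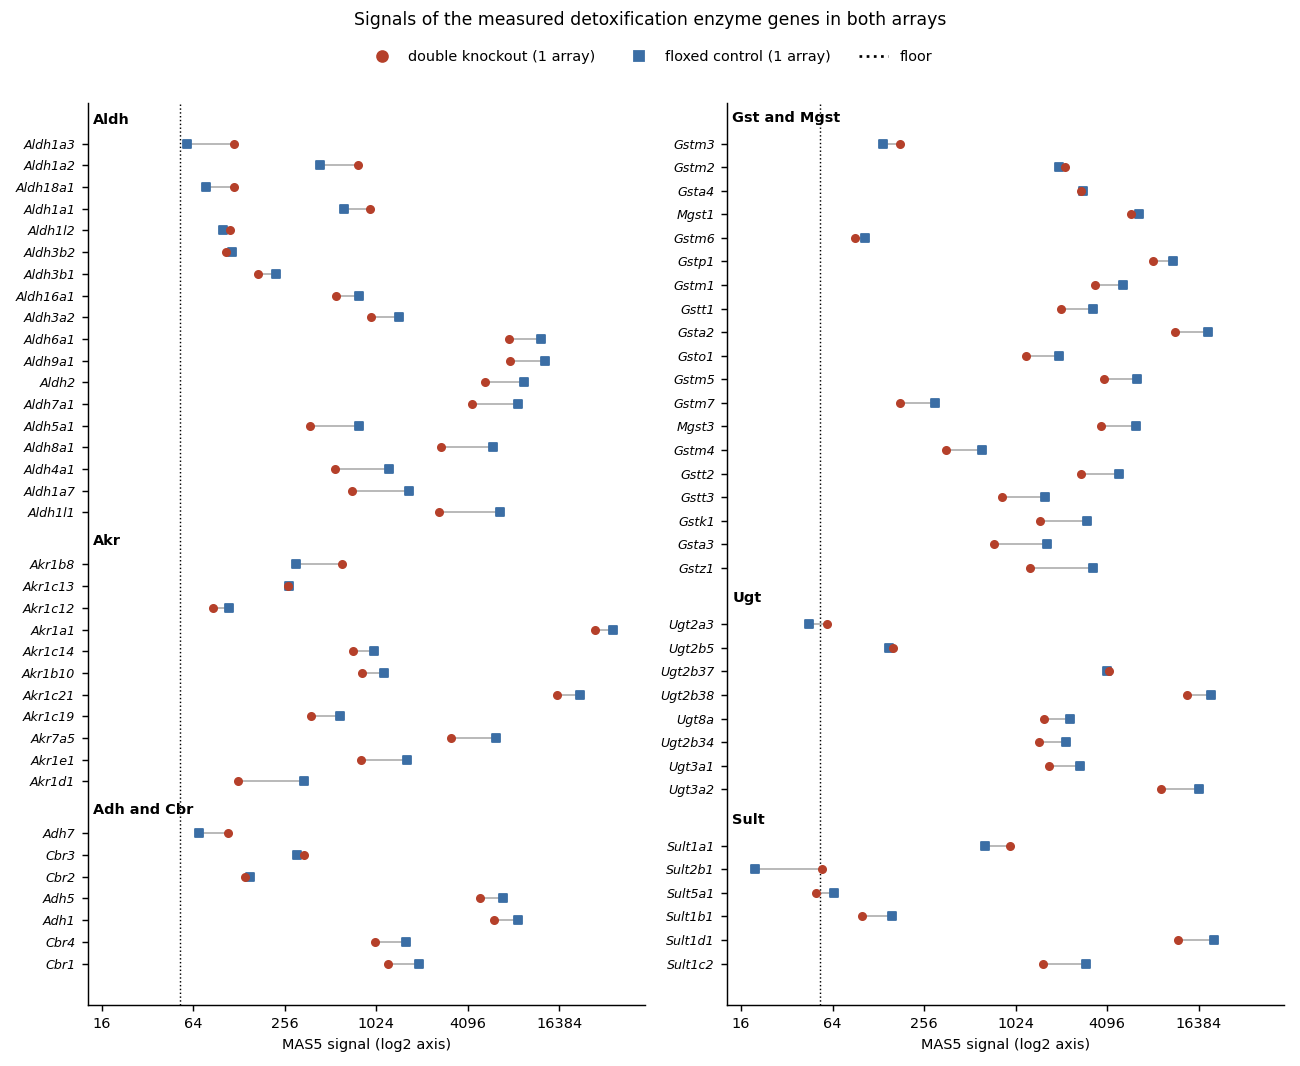
MAS5 signal of each of the 69 measured genes (log2 axis) in the double knockout (circles) and the floxed control (squares), by family and ordered by their log2 difference, with the floor of 52.7 dotted. The circle lies left of the square for 54 genes and right of it for 15. Of the 54, 3 turned higher once the trend on signal was removed, and of the 15, 12 turned lower after recentring on glomerular cell markers.

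**Figure D2:**
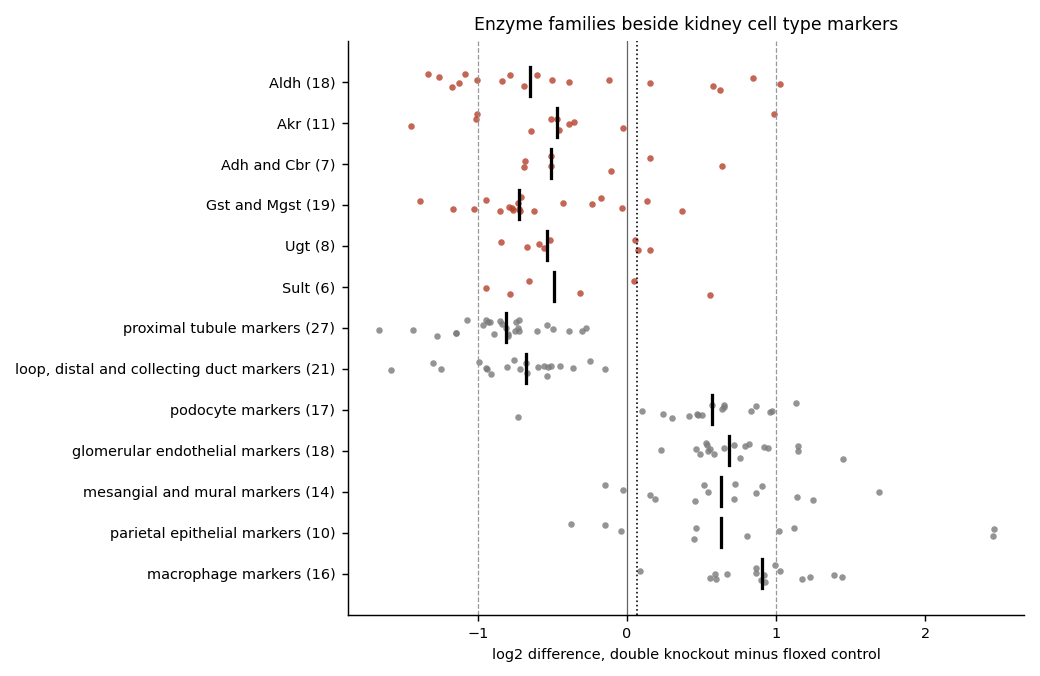
Log2 difference, double knockout minus floxed control, of each measured gene by enzyme family (red) and by cell type marker list (grey), with group medians as black bars, 2-fold as dashed lines, the median of all measured genes (0.07) dotted and the number of genes in brackets. The 6 family medians, from -0.72 to -0.47, lie near those of the tubule lists (-0.81 and -0.67). They lie below those of the podocyte (0.57), endothelial (0.68) and mesangial (0.63) lists. Recentring on glomerular cell markers uses these lists and the parietal list, so it sets their medians near 0 by construction (0.05 or below).

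Among the aldehyde dehydrogenases 18 of 20 genes were measured, 13 lower and 5 higher, with a median of -0.65. Those of amino acid breakdown in mitochondria were all lower. Aldh4a1, which completes proline breakdown, read 549 in double-knockout glomeruli, against 1237 in control glomeruli (2.25-fold lower). Aldh5a1, which oxidises the semialdehyde left by the transmitter GABA, read 373 in knockout against 793 in control glomeruli (2.13-fold lower). Aldh7a1, of lysine breakdown, read 4340.1 in double-knockout glomeruli, against 8707 in control glomeruli, a log2 difference of -1.004 that only just reached the 2-fold rule, and its other 2 probe sets were below the floor in the double knockout, 1 of them in both arrays. Aldh6a1, of valine breakdown, read 7687 in knockout against 12396 in control glomeruli (1.61-fold lower). These 4 genes had a median of -1.05, where the proximal tubule markers had -0.81.

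Aldh8a1, known from the kynurenine pathway of tryptophan breakdown, was at least 2-fold lower on both of its probe sets, at 2727 in double-knockout glomeruli, against 5959 in control glomeruli, and at 1704 in knockout against 3839 in control glomeruli. Aldh1l1, the cytosolic enzyme that releases tetrahydrofolate from its formyl form, had the lowest difference of the family, with 2648 in knockout against 6658 in control glomeruli (2.51-fold lower), but a weaker second probe set read 58.7 in knockout against 82.9 in control glomeruli. Its mitochondrial counterpart Aldh1l2 read 112 in double-knockout glomeruli, against 101 in control glomeruli. Aldh2, which clears acetaldehyde and lipid aldehydes, read 5339.6 in knockout against 9542 in control glomeruli (1.79-fold lower), and its 4 other probe sets were all lower, from -0.71 to -0.16 on the log2 scale. Aldh9a1, of carnitine synthesis, read 7717 in knockout against 13258 in control glomeruli (1.72-fold lower). The fatty aldehyde enzyme Aldh3a2, Aldh16a1, Aldh3b1 and Aldh3b2 differed by -0.61 to -0.12.

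The 3 retinaldehyde dehydrogenases read higher, although Aldh1a1 turned lower after recentring on glomerular cell markers. Aldh1a3 had the highest log2 difference of all 69 genes, with 118 in double-knockout glomeruli, against 58.0 in control glomeruli (1.03, 2.04-fold higher), a control signal just above the floor. Its other probe sets were below the floor in both arrays, at 50.7 in knockout against 30.9 in control glomeruli and 7.74 in knockout against 11.7 in control glomeruli. Aldh1a2 read 782 in knockout against 435 in control glomeruli (0.85), and Aldh1a1 read 937 in knockout against 629 in control glomeruli (1.49-fold higher). After recentring on glomerular cell markers Aldh1a3 and Aldh1a2 stood at 0.39 and 0.21, and Aldh1a1 at -0.06. The markers of podocytes, mesangial cells and parietal cells had medians of 0.57, 0.63 and 0.63 in the same arrays, and their part in these values was not tested. Aldh18a1, which makes proline rather than breaking it down, was also higher, with 119 in double-knockout glomeruli, against 77.0 in control glomeruli (0.63), and -0.01 after that recentring.

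Aldh1a7, a mouse gene next to Aldh1a1 with no protein-coding gene between them, differed from Aldh1a1 in direction. It read 704 in double-knockout glomeruli, against 1688 in control glomeruli, a log2 difference of -1.26 (2.40-fold lower) against 0.57 for Aldh1a1, which turned to -0.06 after recentring on glomerular cell markers. The starts of these neighbours are shown because their sequences are alike where their array values are not. Both are RefSeq windows of GRCm38.p6, 250 bases before to 50 after the gene start, for Aldh1a7 at chr19:20727507-20727806, minus strand, and for Aldh1a1 at chr19:20601718-20602017, plus strand (of its annotated starts, the one nearer to Aldh1a7). Capitals mark a core of sites bound by the factor HNF1, GTTAAT on either strand, found in the first window and not in the second.
Aldh1a7: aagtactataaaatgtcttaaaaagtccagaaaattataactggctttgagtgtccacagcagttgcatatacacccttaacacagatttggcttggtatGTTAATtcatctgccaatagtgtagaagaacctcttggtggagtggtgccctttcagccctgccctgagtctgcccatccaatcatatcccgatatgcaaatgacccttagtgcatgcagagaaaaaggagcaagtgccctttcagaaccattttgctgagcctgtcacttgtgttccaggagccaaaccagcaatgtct
Aldh1a1: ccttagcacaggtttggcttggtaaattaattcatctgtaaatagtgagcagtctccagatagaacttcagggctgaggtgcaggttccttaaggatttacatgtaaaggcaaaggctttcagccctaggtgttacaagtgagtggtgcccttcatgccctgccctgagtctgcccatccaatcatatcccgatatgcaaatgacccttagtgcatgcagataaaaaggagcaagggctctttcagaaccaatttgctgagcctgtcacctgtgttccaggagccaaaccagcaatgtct
Laid side by side without gaps, 125 of the last 130 bases were identical (96.2%), including a run of 65 identical bases, and 59.0% were identical over all 300. A match to these letters is a description and not a binding site.

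Of the aldo-keto reductases 11 of 15 genes were measured, 10 lower and 1 higher, with a median of -0.47. Akr1d1, the steroid 5β-reductase best known from bile acid synthesis in liver, had the lowest difference of all 69 genes, with 126 in double-knockout glomeruli, against 343 in control glomeruli (2.72-fold lower), and its second probe set read 120 in knockout against 245 in control glomeruli. Akr1e1, a reductase of anhydrofructose, read 812 in knockout against 1635 in control glomeruli (2.01-fold lower), but its second probe set read 95.3 in knockout against 97.9 in control glomeruli. Akr7a5, which reduces succinic semialdehyde and aflatoxin aldehyde, read 3154.5 in double-knockout glomeruli, against 6323 in control glomeruli (-1.003). Like Aldh7a1 it lay at the edge of the 2-fold rule, and its other probe sets read -1.14 and -0.52.

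Akr1a1, the aldehyde reductase that serves ascorbate synthesis in the mouse, read 28207 in double-knockout glomeruli, against 36989 in control glomeruli (1.31-fold lower), but was above 0 after removal of the trend on signal, and its 3 other probe sets ran from -0.52 to -0.47. The 5 measured Akr1c genes, reductases of steroids and prostaglandins that sit in a cluster, were all lower, from -0.64 for Akr1c19 to -0.02 for Akr1c13. The mouse steroid reductase Akr1c21 read 15794 in knockout against 22431 in control glomeruli (1.42-fold lower), and a probe set shared by Akr1c12 and Akr1c13 read 298 in knockout against 394 in control glomeruli. The exception was Akr1b8, a relative of aldose reductase, with 606 in double-knockout glomeruli, against 305 in control glomeruli, a log2 difference of 0.99 just short of 2-fold, and 0.35 after recentring on glomerular cell markers. Its neighbour Akr1b10 read 825 in knockout against 1143 in control glomeruli (-0.47), but its other probe sets were higher, at 112 in knockout against 98.0 in control glomeruli (0.19) and at 79.1 in knockout against 44.2 in control glomeruli, where the control signal is below the floor. The mean over its probe sets was 0.10, so the direction of Akr1b10 depends on the probe set.

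Alcohol dehydrogenases and carbonyl reductases had 7 of 11 genes measured and none past 2-fold. Adh1, the classical enzyme for ethanol and retinol, read 6105 in double-knockout glomeruli, against 8695 in control glomeruli (-0.51). Adh5, which handles the glutathione adduct of formaldehyde and S-nitrosoglutathione, read 4929 in knockout against 7020.3 in control glomeruli (-0.51). Both were 1.42-fold lower. Adh7, an enzyme with high activity on retinol, was higher, with 109 in double-knockout glomeruli, against 70.0 in control glomeruli (0.64), but just below 0 after recentring on glomerular cell markers. Cbr1, a reductase of quinones and prostaglandins, read 1214 in knockout against 1956 in control glomeruli (-0.69), and the mitochondrial Cbr4 read 1005 in knockout against 1616 in control glomeruli (-0.68). Cbr2 and Cbr3 differed little, at -0.11 and 0.15, and Cbr3 turned lower after that recentring. The 4 Adh genes without a measured probe set, Adh4, Adh6a, Adh6b and Adh6-ps1, had signals of at most 28.9.

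The glutathione transferases had the lowest family median, -0.72, with 17 of 19 measured genes lower. Gstz1, the maleylacetoacetate isomerase of tyrosine breakdown, read 1269.9 in double-knockout glomeruli, against 3317 in control glomeruli (2.61-fold lower). Gsta3, an alpha class enzyme, read 738 in knockout against 1655 in control glomeruli (2.24-fold lower), with a second probe set at 165 in knockout against 259 in control glomeruli. Gstk1, of mitochondria and peroxisomes, read 1478 in knockout against 3015 in control glomeruli (2.04-fold lower). The theta class was lower throughout, at 830.2 in knockout against 1598 in control glomeruli for Gstt3, 2735 in knockout against 4928 in control glomeruli for Gstt2 and 2024 in knockout against 3304 in control glomeruli for Gstt1. Gsta2 read 11518 in double-knockout glomeruli, against 18966 in control glomeruli (1.65-fold lower), and a probe set shared by Gsta1, Gsta2 and Gm3776 read 8228 in knockout against 17292 in control glomeruli (-1.07).

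Gstp1, the pi class enzyme, read 8212 in double-knockout glomeruli, against 11044 in control glomeruli (1.34-fold lower). The membrane-bound Mgst3 read 3726 in knockout against 6349 in control glomeruli (1.70-fold lower), whereas Mgst1 read 5899 in knockout against 6639.6 in control glomeruli (-0.17, and above 0 once the trend on signal was removed). Gsta4, which conjugates the lipid peroxidation product 4-hydroxynonenal, read 2756 in double-knockout glomeruli, against 2822 in control glomeruli (-0.03), also above 0 by that step. In the mu class, Gstm4, Gstm7, Gstm5 and Gstm1 were 1.73-fold to 1.54-fold lower, and Gstm6 stood at -0.23. Gstm2 and Gstm3 were higher, at 2149.7 in knockout against 1961 in control glomeruli (0.13) and 177 in knockout against 137 in control glomeruli (0.37), and both turned lower after recentring on glomerular cell markers. Some transcripts within the Gstm, Gsta, Akr1c and Ugt2b groups may be alike, as may those of Aldh1a1 and Aldh1a7, so single members of them are uncertain. Transcript sequences were not compared.

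The Gsta3 window is shown because it was the only one among the genes past 2-fold that held the core of the antioxidant response element, which NRF2, the main inducer of glutathione transferases, binds. It lies at chr1:21240335-21240634, plus strand (GRCm38.p6, RefSeq, 250 bases before to 50 after the start). Capitals mark that core, TGACNNNGC, and upstream of it an HNF1 core on the other strand.
Gsta3: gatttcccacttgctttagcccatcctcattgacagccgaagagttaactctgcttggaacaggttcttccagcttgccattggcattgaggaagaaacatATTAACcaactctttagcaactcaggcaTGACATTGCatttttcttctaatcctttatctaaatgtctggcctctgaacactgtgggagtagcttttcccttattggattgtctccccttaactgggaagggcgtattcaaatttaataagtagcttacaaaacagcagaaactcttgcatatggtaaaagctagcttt
Promoter windows were listed for 61 of the 69 measured genes. The core, searched on both strands, was found in 7 of the 61 genes (11.5%), where 13.99% of all 27025 genes with a window had it, and in 1 of the 11 genes past 2-fold. Its carriers Aldh1a2 and Gsta3 differed in direction, at 0.85 and -1.16, and the others were Aldh9a1, Gstm5, Gstm7, Akr1c19 and Mgst1, between -0.78 and -0.17. The HNF1 core GTTAAT was in 8 of 61 genes (13.1%), where 8.24% of all genes had it. Its carriers differed in direction too, with Aldh1a7, Gsta3, Sult1d1, Ugt3a1 and Akr1c21 lower and Akr1b8, Sult1a1 and Ugt2a3 higher, of which Sult1a1 and Ugt2a3 turned after recentring on glomerular cell markers.

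The longer HNF1 palindrome, which is that core, any base and the reverse complement of the core, was in none of the 61, where 3 of 27025 genes had it, and CAAAGTCCA, a repeat bound by HNF4, was in Sult1b1 alone, where 0.555% of all genes had it. The core of the element bound by the aryl hydrocarbon receptor AHR, GCGTG, was in 21 of 61 genes (34.4%), where 35.2% of all genes had it. It was in the windows of Akr7a5 and Aldh4a1, which lie on the same chromosome with 4 protein-coding genes between them and were both past 2-fold. A stretch of 60 bases around the first match of each is shown because these were the only genes past 2-fold that held it, for Aldh4a1 at chr4:139622681-139622740, plus strand, and for Akr7a5 at chr4:139310732-139310791, plus strand, with the core in capitals.
Aldh4a1: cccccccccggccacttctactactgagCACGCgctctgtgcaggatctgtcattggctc
Akr7a5: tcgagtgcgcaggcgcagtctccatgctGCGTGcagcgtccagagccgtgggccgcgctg
In the Aldh4a1 window the core was on the other strand.

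Of the glucuronosyltransferases 8 of 11 genes were measured and none was past 2-fold, with a median of -0.54. Ugt3a2 read 9210.4 in double-knockout glomeruli, against 16559 in control glomeruli (-0.85). Its neighbour Ugt3a1 read 1703 in knockout against 2716 in control glomeruli (1.59-fold lower). Ugt2b38 read 13729 in double-knockout glomeruli, against 19623 in control glomeruli (1.43-fold lower), and Ugt2b34 read 1449.7 in knockout against 2185 in control glomeruli, with a second probe set at -1.03. Ugt2b37 and Ugt2b5 differed by 0.05 and 0.07, and both were below 0 after centring on the median. Ugt8a, which makes galactosylceramide rather than a glucuronide, was lower on both probe sets, at -0.56 and -0.87. Ugt2a3 was above the floor in the double knockout alone, at 58.7 in knockout against 44.6 in control glomeruli.

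The sulphotransferases had 6 of 13 genes measured, with a median of -0.49. Sult1d1, which acts on catecholamines in the mouse, read 12025 in double-knockout glomeruli, against 20749.9 in control glomeruli (1.73-fold lower), with a second probe set at -1.03. Sult1c2 read 1549.6 in knockout against 2983 in control glomeruli (1.93-fold lower), and Sult1b1, known for thyroid hormones, read 100.2 in knockout against 158 in control glomeruli (1.58-fold lower). Sult1a1, the main enzyme for phenols, was higher, with 944 in double-knockout glomeruli, against 642 in control glomeruli (0.56), but stood at -0.08 after recentring on glomerular cell markers. Sult2b1, at 54.5 in knockout against 19.7 in control glomeruli, passed the floor through the double knockout alone. Sult5a1, at 50.1 in knockout against 65.5 in control glomeruli, passed it through the control alone. Each has only a bound in the other array. The other 7 Sult genes, which include the oestrogen sulphotransferase Sult1e1, had signals of at most 33.9.

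Neighbouring genes of a family did not always share a direction. The 3 theta class genes lay between -0.95 and -0.71 and the Ugt3a pair at -0.67 and -0.85. In the mu class cluster of 7 genes, Gstm3 and Gstm2 stood at 0.37 and 0.13 between neighbours at -0.23 and -0.62. Aldh1a1 with Aldh1a7, Akr1b8 with Akr1b10 (by its brightest probe set only), Cbr3 with Cbr1 and Adh7 with Adh1 were adjacent pairs with the first higher and the second lower, and of these first genes only Akr1b8 was still above 0 after recentring on glomerular cell markers.

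**Figure D3:**
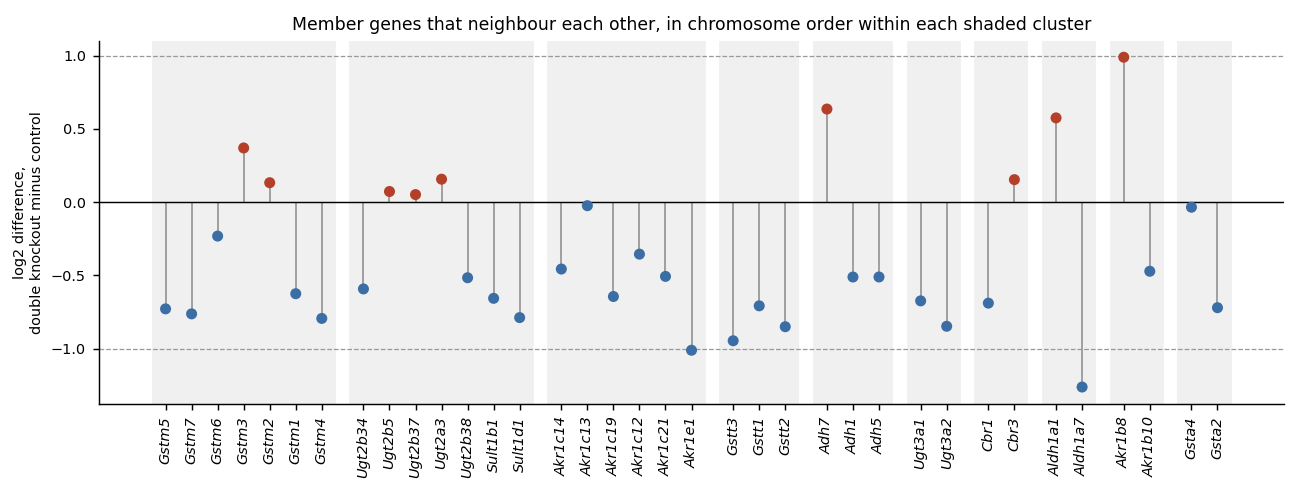
Log2 difference, double knockout minus floxed control, of measured genes that neighbour each other in the RefSeq gene order (at most 5 other protein-coding genes between them), 1 shaded block per cluster, red above 0 and blue below, with 2-fold as dashed lines. Clusters that mix families are not drawn, apart from that of Ugt2 genes with Sult1b1 and Sult1d1. Left out are Aldh9a1 with Mgst3, Aldh3b1 and Aldh3b2 with Gstp1, and Akr7a5 with Aldh4a1. Aldh1a1 (0.57) beside Aldh1a7 (-1.26) is the widest adjacent gap, and of the red genes only Akr1b8 stayed above 0 after recentring on glomerular cell markers.

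Probe sets of the same gene mostly shared a direction. Of 19 member genes with a further probe set above the floor in both arrays, the next in signal differed in the same direction for 18 (94.7%), against 4449 of 5859 genes (75.9%) over the whole array. Akr1b10 was the exception. A direction is more easily shared far from 0, and the median was -0.59 for the 69 member genes against 0.07 for all measured genes. These shares therefore do not compare how well probe sets match. The median gap between such probe sets was 0.31 on the log2 scale, against 0.20 over the whole array. Akr1e1 (-1.01 and -0.04), Aldh1l1 (-1.33 and -0.50) and Gsta3 (-1.16 and -0.65) were past 2-fold on 1 of 2 probe sets. Conversely Ugt3a1, Ugt2b34 and Sult1d1 had a probe set below -1 that did not stand for the gene.

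**Figure D4:**
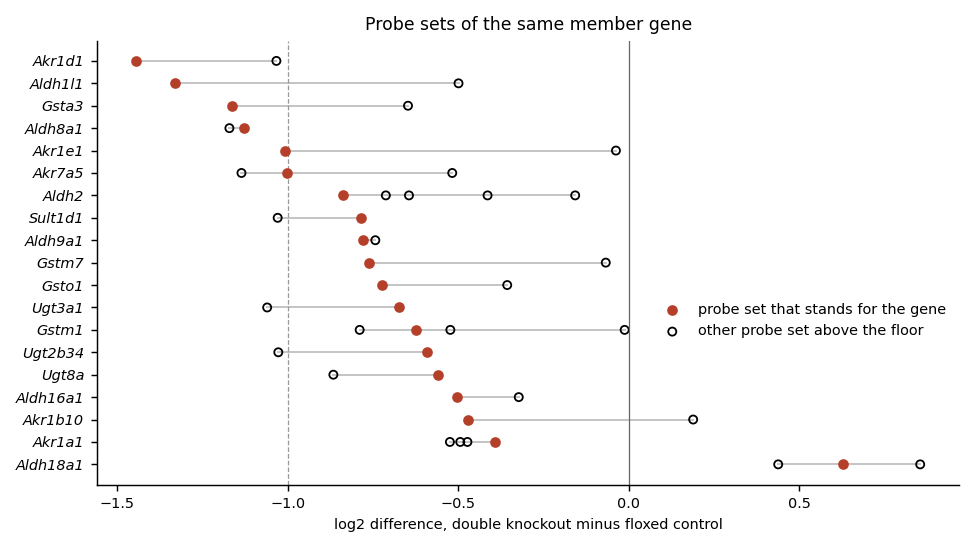
Log2 difference, double knockout minus floxed control, of each probe set above the floor in both arrays for the 19 member genes with more than 1, with the probe set that stands for the gene filled and others open. All probe sets of a gene lie on the same side of 0 for 18 of 19 genes, and the dashed line marks 2-fold lower; Akr1a1 turned higher after the trend on signal was removed, and Aldh18a1 turned lower after recentring on glomerular cell markers.

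The gene lists for the co-substrates do not hold supply genes alone, and the glutathione list includes recycling and breakdown. Both lists had medians below 0 under every scaling. Over the whole array 2.87% of measured genes were at least 2-fold lower and 3.53% higher, and after recentring on glomerular cell markers 18.5% and 0.497%. For glutathione, 17 of 21 listed genes were measured, all 17 lower as deposited and under each of the 5 scalings, with a median of -0.77, 6 at least 2-fold lower (14 after recentring on glomerular cell markers) and none higher. Cth, which makes cysteine, read 1545 in double-knockout glomeruli, against 4556 in control glomeruli (2.95-fold lower), and Cbs, the enzyme before it, read 738 in knockout against 1969 in control glomeruli (2.67-fold lower). Acy1, which splits acylated amino acids, and Ggct, of glutathione breakdown, were 2.78-fold and 2.29-fold lower. The subunits of the rate-limiting step of glutathione synthesis were closer to the control, at 2033 in knockout against 2399 in control glomeruli for Gclc and 2606 in knockout against 3471 in control glomeruli for Gclm, which are also on the NRF2 list below. For UDP-glucuronate and the sulphate donor PAPS, 9 of 12 measured genes were lower, with a median of -0.42 and 1 at least 2-fold lower (7 after that recentring). Papss2, which makes PAPS, read 2189 in double-knockout glomeruli, against 5330.1 in control glomeruli (2.44-fold lower), and Ugdh, which makes UDP-glucuronate, read 2014 in knockout against 2766 in control glomeruli (1.37-fold lower).

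Genes that respond to NRF2 outside the families had a median of -0.28, with 13 of 17 lower, 2 at least 2-fold lower and 1 at least 2-fold higher. These counts were 1 and 1 after quantile scaling or removal of the trend on signal, and 7 and 0 after recentring on glomerular cell markers. Of all measured genes, 3.28% were lower and 2.69% higher by this rule after quantile scaling. The shares were 3.25% and 2.59% after removal of the trend, and 18.5% and 0.497% after that recentring. The exporters Abcc2 and Abcc3 went opposite ways, with 1401 in double-knockout glomeruli, against 3116 in control glomeruli for Abcc2 (2.22-fold lower) and 245 in knockout against 97.0 in control glomeruli for Abcc3 (2.53-fold higher, not past 2-fold after that recentring). Me1 was 2.01-fold lower and Nqo1, the quinone reductase, 1.69-fold lower. Nfe2l2, which encodes NRF2, read 2726 in double-knockout glomeruli, against 2299 in control glomeruli (0.25, and below 0 after recentring on glomerular cell markers). Among the 13 measured regulators Ahr, the aryl hydrocarbon receptor, read 859 in knockout against 428 in control glomeruli (2.01-fold higher), although no regulator was at least 2-fold higher under any of the 5 other scalings. Hnf4a read 3938 in knockout against 6077 in control glomeruli (1.54-fold lower) and the xenobiotic receptor Nr1i2 was 1.72-fold lower. The median of the regulators was 0.22, and -0.42 after recentring on glomerular cell markers.

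Beside the retinaldehyde dehydrogenases, the other genes of retinoid handling were mixed, with a median of -0.41, 5 of 17 at least 2-fold lower and 1 at least 2-fold higher, and with 10 and 0 after recentring on glomerular cell markers. Cyp26b1, which breaks down retinoic acid, read 1179 in double-knockout glomeruli, against 445 in control glomeruli (2.65-fold higher, not past 2-fold after that recentring). Cyp26a1 and Crabp1, an enzyme of the same kind and a binding protein of retinoic acid, read 45.2 and 44.9 in knockout glomeruli, below the floor, against 139.99 and 186 in control glomeruli, and were at least 2.66-fold and 3.53-fold lower. Retsat, which saturates retinol, read 1248 in knockout against 3132 in control glomeruli (2.51-fold lower). Other carbonyl, ester, epoxide and conjugating enzymes had a median of -0.81, with 8 of 25 at least 2-fold lower and 1 higher. These counts were 12 and 1 with either median or 75th percentile centring, and 17 and 0 (Aox1 no longer past 2-fold) after recentring on glomerular cell markers. Of all measured genes, 3.98% were lower and 2.50% higher by this rule after either centring, and 18.5% and 0.497% after that recentring. Gnmt, a glycine methyltransferase, was 4.54-fold lower, Hsd11b1, which regenerates glucocorticoid, 2.61-fold lower and Fmo4, a flavin monooxygenase, 2.53-fold lower, while the aldehyde oxidase gene Aox1, below the floor in the control, was at least 2.29-fold higher.

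**Figure D5:**
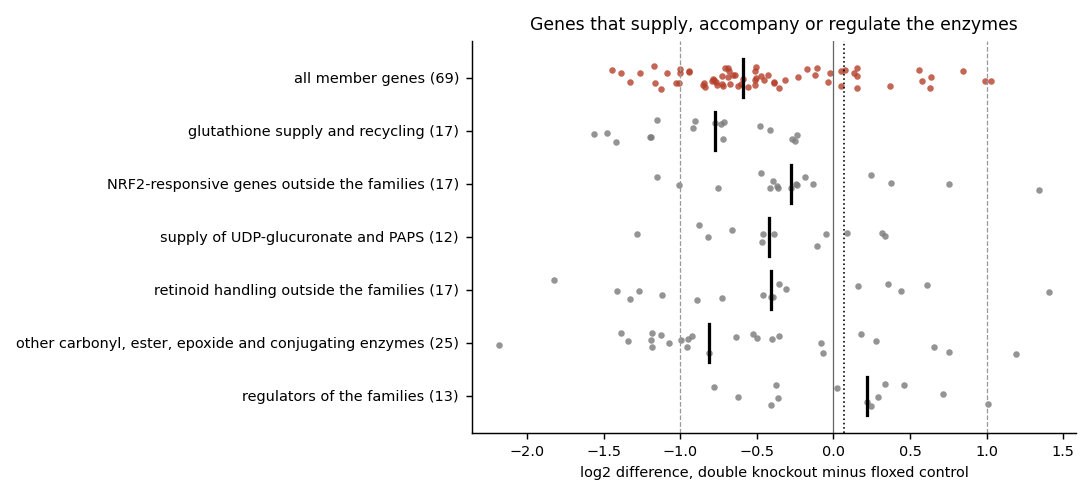
Log2 difference, double knockout minus floxed control, of the 69 member genes (red) and of measured genes on 6 related lists (grey), with medians as black bars, 2-fold as dashed lines, the median of all measured genes (0.07) dotted and the number of genes in brackets. The genes of glutathione supply, recycling and breakdown all lie below 0. The median of the regulators alone lies above 0, at 0.22, but at -0.42 after recentring on glomerular cell markers.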

How the data were processed

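The 2 arrays carry 45101 probe sets each. The deposited values are MAS5 signal intensities, 1 column per array, per the file headers and the submitters' processing notes; no MAS5 version is stated there. MAS5 scales each array as a whole, and the mean of each array without its lowest and highest 2% was 500.0. The 64 control probe sets were left out, and genes were named through the platform annotation (34945 probe sets with 1 symbol, 932 with several, 9160 with none). From the intensities as deposited, signals were raised to a floor of 52.7, the mean of the arrays' 40th percentiles, and the log2 difference, double knockout minus floxed control, was taken. A gene stands for its probe set of highest mean log2 signal, without those marked _x_at where another exists. A fold with 1 signal below the floor is a bound. Named were genes past 2-fold, the 3 largest differences and 2 brightest genes of each family, up to 4 genes of each related list, and others by role. With 1 array per genotype no test was run, no p-value or error can be given, and the number of arrays limits the precision. The enzyme genes, lists and roles were chosen with earlier results of these data known. Promoters and gene order came from RefSeq (GRCm38.p6). Other floors, scalings, probe set choices and fold rules were tried as alternatives. Scripts used Python 3.11.15, pandas 2.3.3, numpy 2.4.6, scipy 1.17.1 and matplotlib 3.10.9 and were tested on simulated data.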

Additional observations from a re-analysis of the deposited data

How the results depend on the processing

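The median log2 difference of the measured enzyme genes was -0.59 and stayed below 0 under every alternative run. It was -1.23 after recentring on glomerular cell markers and between -0.69 and -0.47 otherwise. The mean in place of the median was -0.45. The count of genes at least 2-fold lower, 12 as reported, was 46 after that recentring (where 18.5% of all measured genes were at least 2-fold lower), 7 with the mean over a gene's probe sets, 35 with a 1.5-fold rule and 0 with a 3-fold rule, and between 9 and 15 under the other alternatives. The count at least 2-fold higher, 1 as reported, was 3 of 82 with a floor at the 25th percentile (4.33% of all measured genes). With no floor it was 10 of 93 (9.10% of all), and with a 1.5-fold rule 5 of 69 (13.7% of all). It was 0 with a floor at the 60th percentile, with a pseudocount of 32, after median, 75th percentile or quantile scaling, after loess removal of the trend on signal, after recentring on glomerular cell markers and with a 3-fold rule. Under these settings 0.497% to 2.84% of all measured genes were higher by the same rule. Of the 13 genes past 2-fold, 6 were past it under every setting that gave a value (Aldh1a7, Aldh4a1, Aldh5a1, Aldh8a1, Gstk1 and Gstz1), and Aldh1a3 under 5 of 11. For single genes, 115 values under the alternatives moved by more than 0.20, the median gap between probe sets of a gene, and 690 did not. The recentring on glomerular cell markers moves every gene by -0.64, while other floors or probe set choices leave many genes unchanged. These counts therefore do not measure stability. The causes were not tested. Signals near the floor, as for Aldh1a3, limit what these arrays can show. No paired analysis was possible because each genotype has 1 array.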

Other observations

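The Ugt1a genes, the glucuronosyltransferases of bilirubin and many drugs, share exons and are read by probe sets with 8 symbols each, so they are not among the 69 genes. All 3 such probe sets were lower in the double knockout. Their signals in the double-knockout array against the control array were 7642 against 14857 (-0.96), 13108 against 23484 (-0.84), and 5691 against 12709 (-1.16). These log2 differences lie below the median of -0.54 of the 8 measured Ugt genes with a probe set of their own. A further shared probe set of the 8 in all, that of Gsta1, Gsta2 and Gm3776, is given with Gsta2, and the 3 shared probe sets of Ugt2a1 with Ugt2a2 and of Aldh3b2 with Aldh3b3 were below the floor in both arrays.

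Of the 24 enzyme genes that did not reach the floor, Akr1c20 had the highest signal, 51.5. The group holds Aldh3a1, a corneal aldehyde dehydrogenase, and Mgst2.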
